A study of Mus musculus with 2 samples.

Results

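The miR-26 family of the mouse has 3 genes, Mir26b, Mir26a-2 and Mir26a-1, each inside a gene for a small phosphatase of the Ctdsp group. The genes were chosen as the rows of the deposited tables whose Ensembl identifier carries 1 of these symbols, and all 3 were found among 1973 gene rows. Their levels come from microRNA sequencing of the facial prominences, the mesenchymal buds under epithelium from which face and jaws form, in B6NCrl mouse embryos at embryonic day 12.5. The data hold 2 libraries, described by the labels as biological replicates of the same tissue: replicate 1 pooled 120 embryos and replicate 2 pooled 88 embryos, both of mixed sex and with no treatment or mutation given in the labels. Pools give the mean of many embryos, so the spread between single embryos was not measured.

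A microRNA is cut from a hairpin in its primary transcript, and either arm of the hairpin (5p or 3p) can give a mature strand. Bases 2 to 8 of the mature strand, the seed, pair with target messenger RNAs and lower their output. miR-26 is known as a widely expressed family that is abundant in differentiated cells and restrains proliferation; the Polycomb methyltransferase Ezh2 is among its best known targets. The Ctdsp phosphatases dephosphorylate the tail of RNA polymerase II, serve as cofactors of REST, the repressor of neuronal genes outside neurons, and remove phosphates from the retinoblastoma protein.

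The mature strands are shown because they decide which reads can be assigned to which gene. The sequences are from RefSeq on GRCm38.p6, where all 3 genes matched by symbol, and the capitals mark the seed.
miR-26b-5p (Mir26b): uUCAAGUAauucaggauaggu
miR-26a-5p (Mir26a-2 and Mir26a-1): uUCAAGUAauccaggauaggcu
miR-26b-3p (Mir26b): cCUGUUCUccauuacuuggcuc
miR-26a-2-3p (Mir26a-2): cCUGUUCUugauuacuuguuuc
miR-26a-1-3p (Mir26a-1): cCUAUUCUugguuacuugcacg

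The 5p strands of all 3 genes had the seed UCAAGUA, which no other of the 1679 mature names in the RefSeq table carried. Mir26a-2 and Mir26a-1 gave the same 5p strand of 22 bases. With positions counted from the 5′ end, miR-26b-5p differed from it by C11U and C21U over the 21 bases compared, both outside the seed, the first letter being that of miR-26a-5p. The 3p strands differed more. miR-26a-2-3p differed from miR-26a-1-3p at 6 of 22 bases, among them A4G inside the seed. miR-26b-3p and miR-26a-2-3p shared the seed CUGUUCU, along with miR-6932-3p and miR-7039-3p, whereas the seed CUAUUCU of miR-26a-1-3p was found in no other mature name of the table.

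The whole hairpins follow, again from RefSeq and equal to the GENCODE M21 sequences of the same genes, with both mature arms in capitals.
Mir26b: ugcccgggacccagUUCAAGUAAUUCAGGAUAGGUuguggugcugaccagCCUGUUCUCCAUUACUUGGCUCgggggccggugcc
Mir26a-2: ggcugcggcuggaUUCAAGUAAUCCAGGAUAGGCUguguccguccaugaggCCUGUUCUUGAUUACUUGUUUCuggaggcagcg
Mir26a-1: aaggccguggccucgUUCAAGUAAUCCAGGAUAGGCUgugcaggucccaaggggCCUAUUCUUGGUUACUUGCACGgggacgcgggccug

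Mir26a-2 and Mir26a-1 had a stretch of 25 identical bases, from base 14 to 38 of the Mir26a-2 hairpin and from base 16 to 40 of the Mir26a-1 hairpin. It held the entire 5p strand and the 3 bases after it. Mir26b shared at most 10 bases in a row with Mir26a-2 and 11 with Mir26a-1. Over the whole hairpin, identity was 72.5% between Mir26a-2 and Mir26a-1, 66.3% between Mir26b and Mir26a-2, and 68.5% between Mir26b and Mir26a-1. Of the 5 different mature strands, miR-26a-5p alone was found whole in a miRNA hairpin of the RefSeq table at another place.

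**Figure D1:**
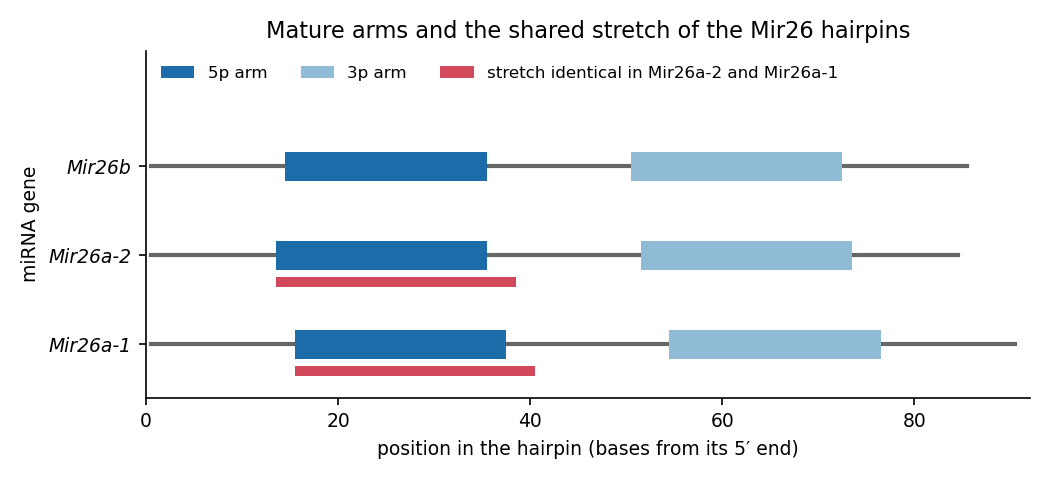
Map of the Mir26 hairpins by distance in bases from the 5′ end of each hairpin, with the 5p arm in dark blue, the 3p arm in light blue and the stretch identical in Mir26a-2 and Mir26a-1 in red. The red stretch of 25 bases covers the 5p arm of both Mir26a genes, and no red stretch lies under a 3p arm or on Mir26b.

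The genes lie on different chromosomes, all on the plus strand of GRCm38, the assembly that mm10 denotes. Mir26b (ENSMUSG00000065468.1, chr1:74394310-74394394, 85 bases) lies in intron 4 of Ctdsp1 by the coding transcript of 7 exons. That intron has 564 bases, with 234 bases between the upstream exon and the miRNA gene and 245 bases after it. Mir26a-2 (ENSMUSG00000065430.1, chr10:126995530-126995613, 84 bases) lies in intron 5 of Ctdsp2 by the coding transcript of 8 exons, an intron of 1946 bases. It also touches, by 1 base, an exon of at most 335 bases in each of 2 of the 4 annotated Ctdsp2 transcripts. Mir26a-1 (ENSMUSG00000065513.1, chr9:119031796-119031885, 90 bases) lies in intron 5 of Ctdspl by the coding transcript of 8 exons, an intron of 3283 bases. The host genes differ in size, with 5777 bases for Ctdsp1, 21259 bases for Ctdsp2 and 117546 bases for Ctdspl.

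For each of the 3 genes, the nearest other miRNA gene had at most 3 reads in either library, and miRNA genes farther off were not examined. The nearest miRNA gene in the tables lay 188 kb from Mir26b (Mir1928) and 1032 kb from Mir26a-1 (Gm22008), each with 0 counts in both libraries. Mir546 lies 2.83 kb from Mir26a-2 on the same strand and had 3 counts in replicate 1 and 0 in replicate 2, which is within the 3 counts that a count of 0 allows. GENCODE M21 lists no gene on the strand opposite to any of the 3 genes. The messenger RNAs of the Ctdsp hosts were not measured, since the tables hold miRNA genes only.

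On the own strand of the listed genes, replicate 1 held 4719337 reads and replicate 2 held 5929220. Another 2970119 reads of replicate 1 and 3575159 of replicate 2 mapped to several places and were assigned to no gene. The level of a gene is given in CPM, its own-strand reads per 1000000 own-strand reads on all gene rows, and detection required 10 or more such reads in each library. All 3 Mir26 genes were detected, against 395 of the 1973 gene rows. The tissue label could be checked against miRNA genes only. Mir140 of cartilage (15199 and 14466 CPM) and Mir205 of epithelium (8400 and 9365 CPM) were abundant in both libraries. The data hold no other embryo part, so these levels cannot tell the facial prominences from other tissue.

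The assigned reads of the Mir26 family lay almost entirely on Mir26b. Mir26b, in Ctdsp1, had 116564 reads in replicate 1 and 156462 in replicate 2, or 24699 and 26388 CPM (mean 25544 ± 1194, SD, n = 2). Counting error gave intervals of 24558 to 24841 CPM in replicate 1 and 26258 to 26519 CPM in replicate 2 (exact Poisson, 95%). Mir26b ranked 12 among the 1973 gene rows in both libraries. The intervals of the libraries do not overlap. They cover counting error only, and a difference between the pools cannot be told apart from one in library preparation.

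Mir26a-2, in Ctdsp2, had 186 reads in replicate 1 and 268 in replicate 2, which is 39.4 and 45.2 CPM (mean 42.3 ± 4.09, SD, n = 2). It ranked 257 and 248, and its intervals of 34.0 to 45.5 CPM and 39.9 to 50.9 CPM overlapped. Mir26a-1, in Ctdspl, had 38 reads in replicate 1 and 51 in replicate 2, which is 8.05 and 8.60 CPM (mean 8.33 ± 0.389, SD, n = 2). Its ranks were 324 and 323, and its intervals were 5.70 to 11.1 CPM and 6.40 to 11.3 CPM. At this depth a read is worth 0.212 CPM in replicate 1 and 0.169 CPM in replicate 2, so the level of Mir26a-1 rests on few reads. Both Mir26a genes stood far below Mir26b in assigned reads in both libraries.

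The order Mir26b, Mir26a-2, Mir26a-1 was the same in both libraries, and no neighbours in it overlapped. Reads that map to both Mir26a genes were assigned to neither, so the order and the ratios below describe assigned reads only. Within a library, where the library size cancels, Mir26b had 627 times the reads of Mir26a-2 in replicate 1 (exact Clopper-Pearson interval 543 to 728) and 584 times in replicate 2 (518 to 661). Mir26a-2 had 4.89 times the reads of Mir26a-1 in replicate 1 (3.44 to 7.13) and 5.25 times in replicate 2 (3.88 to 7.24). The ratios agreed between the libraries within counting error for both pairs. Per 100 bases of annotated gene, mean levels were 30051 ± 1405 CPM for Mir26b, 50.4 ± 4.87 CPM for Mir26a-2 and 9.25 ± 0.432 CPM for Mir26a-1 (SD, n = 2), in the same order.

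**Figure D2:**
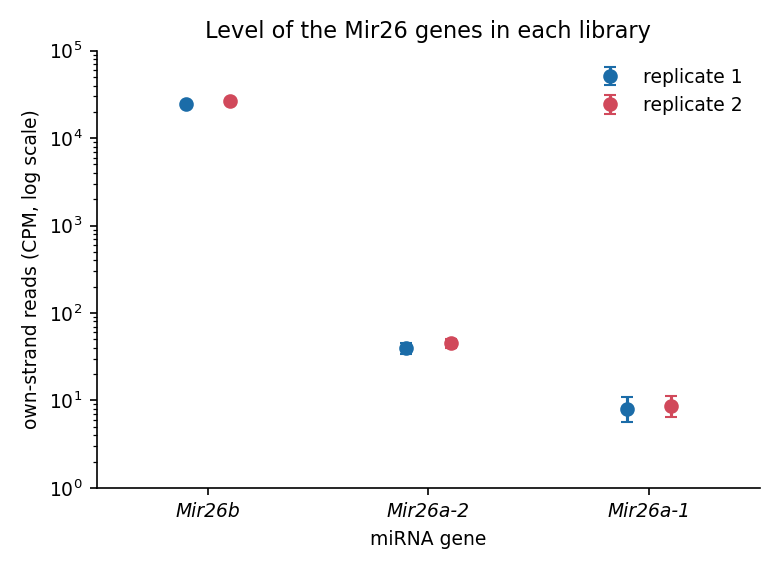
Own-strand reads of the Mir26 genes in CPM on a log scale, with replicate 1 in blue, replicate 2 in red and bars for exact 95% counting intervals. Mir26b stands at 24699 and 26388 CPM, Mir26a-2 at 39.4 and 45.2 CPM and Mir26a-1 at 8.05 and 8.60 CPM.

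The 3 genes together held 2.47% of all gene counts in replicate 1 (exact Clopper-Pearson interval 2.46 to 2.49) and 2.64% in replicate 2 (2.63 to 2.66), a mean of 2.56% ± 0.120 (SD, n = 2). Of the family's reads, 99.81% in replicate 1 and 99.80% in replicate 2 were on Mir26b. Mir26a-2 had 0.159% and 0.171%, and Mir26a-1 had 0.0325% in each library. These shares count assigned reads. A read of up to 25 bases that lies inside the stretch common to Mir26a-2 and Mir26a-1 maps to both, and reads with several mapping places were assigned to no gene, as their separate entry in the tables shows. The values for the Mir26a genes are therefore shares of what could be assigned, not of the miR-26a strand in the tissue. How many of the unassigned reads were miR-26a-5p was not tested, since the tables do not break that entry down. The tables also join both arms, so it was not possible to say which arm gave the reads of either Mir26a gene. In bulk tissue, moreover, fewer cells with a miRNA and less of it per cell cannot be told apart.

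The tables have no header, and the column with nearly all reads on genes was read as the own strand, so a high own-strand share over all gene rows follows from that choice and is a description only. At the Mir26 genes few reads stood in the other column. For Mir26b it held 0 of 116564 reads in replicate 1 and 0 of 156462 in replicate 2, which allows a share of up to 0.00257% and 0.00192%. Mir26a-2 also had 0 opposite reads in both libraries, and Mir26a-1 had 1 in replicate 1 and 0 in replicate 2. Over all gene rows, the column taken as the own strand held 96.8% of the reads in replicate 1 and 96.7% in replicate 2.

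Between the libraries all 3 genes differed little. The log2 ratio of replicate 1 over replicate 2 was -0.09 for Mir26b (exact 95% interval -0.10 to -0.08). It was -0.19 for Mir26a-2 (-0.47 to 0.08) and -0.09 for Mir26a-1 (-0.74 to 0.54). A gene was called different at a Benjamini-Hochberg adjusted p under 0.05 in an exact binomial test with at least a 2-fold difference, which 0 of the 3 Mir26 genes met, against 4.05% of the 395 detected genes. With no limit on the fold, 1 of the 3 Mir26 genes passed, against 51.9% of the detected genes. It was Mir26b, lower in replicate 1 (exact binomial adjusted p = 5.56e-58). In edgeR's exact test with a coefficient of variation fixed at 0.2 it did not pass (edgeR adjusted p = 1). Mir26a-2 (exact binomial adjusted p = 0.263) and Mir26a-1 (exact binomial adjusted p = 0.917) did not pass. With counts this high the test reaches very small differences, and the test compares these 2 libraries only, with no check among further pools.

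Against all detected genes, the Mir26 differences were below the median absolute log2 ratio, which was 0.23 over the 395 genes. Of these genes, 24.3% lay closer to 0 than Mir26b, 43.3% closer than Mir26a-2 and 24.1% closer than Mir26a-1. Counting error adds more to the ratios of genes with few reads, so these shares depend on level as well. Of the 3 genes nearest to Mir26b in level, Mir30e had a log2 ratio of -0.006, Mir100 one of 0.08 and Mir126a one of 0.10. For Mir26a-1, with 38 and 51 reads, the interval from -0.74 to 0.54 leaves the size of the difference loosely determined. All 3 ratios were below 0, as were those of 197 of the 395 genes.

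**Figure D3:**
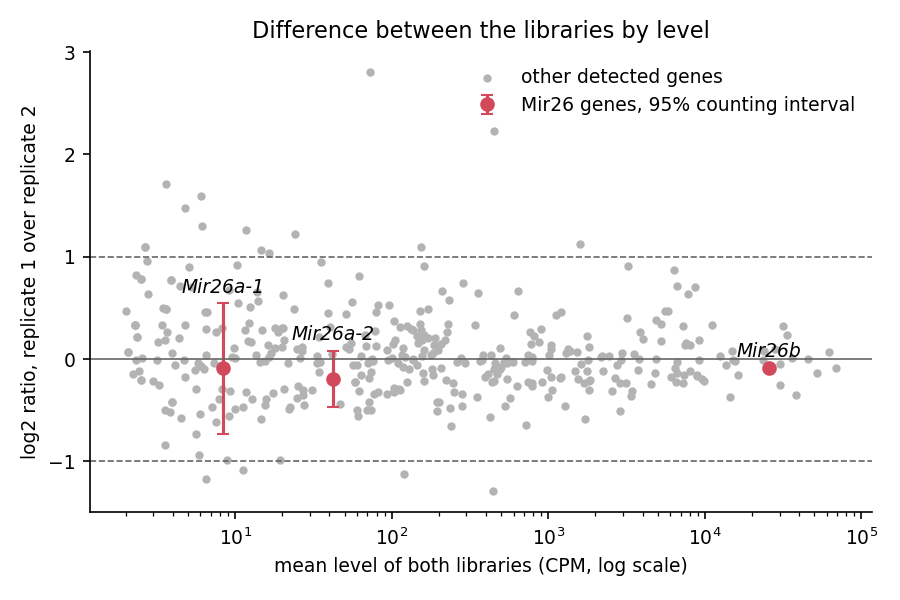
Log2 ratio of replicate 1 over replicate 2 against the mean level in CPM on a log scale for the 395 detected genes, in grey, and the Mir26 genes, in red with exact 95% counting intervals. Dashed lines mark a 2-fold difference. The 3 Mir26 genes lie between -0.19 and -0.09, and the interval widens from Mir26b to Mir26a-1.

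The family with the most similar layout is that of Mir107, Mir103-2 and Mir103-1, which lie in the genes of pantothenate kinases, the enzymes that start the synthesis of coenzyme A. There too a pair of genes gives the same mature strand while the other gives a strand of its own. Mir107 had 1671 and 1952 CPM, Mir103-2 had 72.7 and 91.1 CPM and Mir103-1 had 5.72 and 5.90 CPM in replicates 1 and 2. Mir26b had 520 times the assigned reads of both Mir26a genes together in replicate 1 (exact interval 456 to 596) and 490 times in replicate 2 (439 to 549). The same ratio of Mir107 to both Mir103 genes was 21.3 (19.2 to 23.7) and 20.1 (18.5 to 21.9). The intervals of the families do not overlap in either library. Counting error alone enters these intervals, each family is a single case, and the cases are unlike: Mir107 has a stretch of 20 bases in common with Mir103-1 and Mir103-2, whereas Mir26b has none in common with any miRNA gene. Whether reads of Mir107 went unassigned for that reason was not tested.

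In the other pairs with a common mature strand that were picked for comparison, the reads were unequal too. The gene with more reads was put first in each pair, and further pairs of this kind were not compared. The ratio of Mir26a-2 to Mir26a-1, 4.89 and 5.25, stood below the 12.7 (8.58 to 19.6) and 15.4 (11.0 to 22.4) for Mir103-2 to Mir103-1, with counting intervals that do not overlap in either library. It was close to the 5.0 and 6.37 for Mir218-2 to Mir218-1, genes in the axon guidance genes Slit3 and Slit2. It stood above 1.96 and 1.86 for Mir128-1 to Mir128-2. Mir16-1 and Mir16-2, which are known to slow the cell cycle, had a ratio of 4.09 and 4.32, and Mir30c-1 and Mir30c-2 one of 2.24 and 3.37. Only reads that reach outside the repeated stretch can be assigned in such pairs, so these ratios describe those reads.

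**Figure D4:**
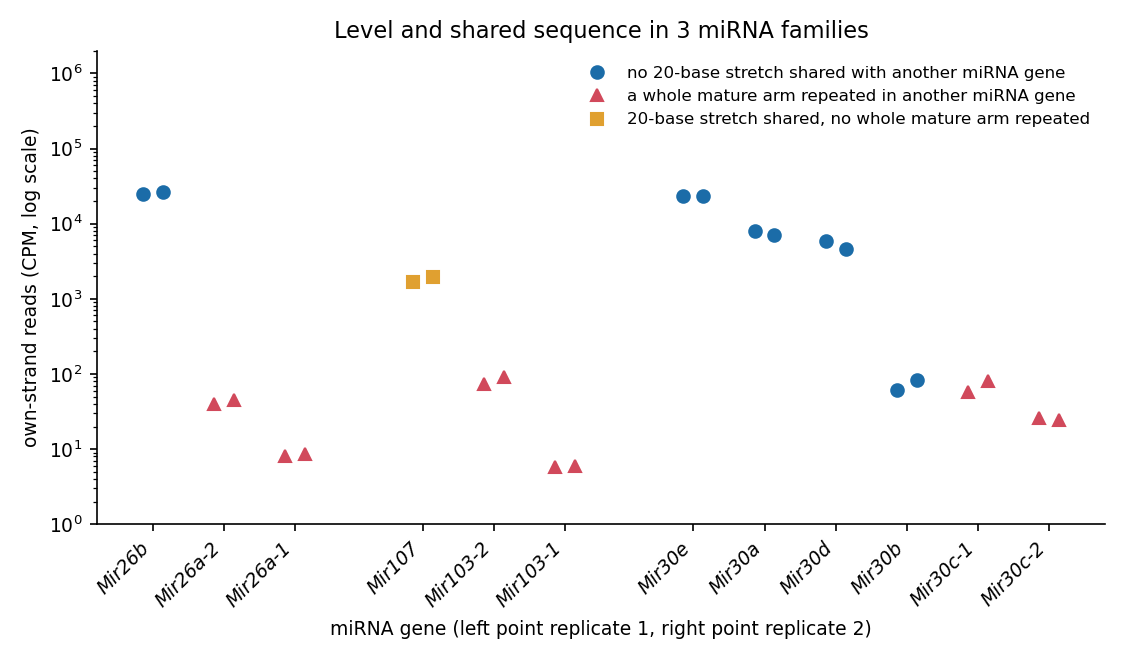
Level in CPM on a log scale of the genes of the Mir26, Mir103/Mir107 and Mir30 families, replicate 1 at left and replicate 2 at right of each gene, marked by the sequence each shares with another miRNA gene. The genes with a repeated mature arm, in red, lie between 5.72 and 91.1 CPM in both libraries, and Mir30b lies in that range without a shared stretch.

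The Mir30 family, known for its high levels in kidney epithelium, showed the same arrangement with an exception. Mir30e (23473 and 23652 CPM), Mir30a (7984 and 7176 CPM) and Mir30d (5828 and 4617 CPM) had no stretch of 20 bases in common with another miRNA gene, as Mir26b had none. Mir30c-1 (57.4 and 81.3 CPM) and Mir30c-2 (25.6 and 24.1 CPM) shared a whole arm and were low, as both Mir26a genes were. Mir30b had no such stretch and yet only 61.0 and 82.1 CPM. A low count in these tables is thus found both with and without a shared stretch. A high count is found with one too. Of the 929 genes with a shared stretch, 89 (9.58%) were detected and 18 exceeded 1000 CPM. Of the 965 genes without, 306 (31.7%) were detected and 82 exceeded 1000 CPM. Outside these families, Mir16-1 had a repeated arm and 1638 and 2024 CPM. Whether a shared stretch or arm lowers the counts of a gene was not tested.

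Over the tables as a whole, the RefSeq table gave 2 mature arms for 555 of the genes, and Mir26b was among the 489 of these whose arms were found whole in no other hairpin. Mir26b ranked 9 among these 489 genes, of which 238 were detected with a median of 186 CPM and 75 exceeded 1000 CPM. Mir26a-2 ranked 21 and Mir26a-1 ranked 32 among the 49 genes with 1 of 2 arms repeated elsewhere, of which 37 were detected with a median of 69.4 CPM and 4 exceeded 1000 CPM. Both Mir26a levels were thus below the median of the detected genes of their own kind.

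The median level of the 3 Mir26 genes was 42.3 CPM. It was 71.5 CPM for the 11 genes of other intronic families in paralogous hosts and 122 CPM for all detected genes. All 11 were detected, against 395 of the 1973 gene rows. With 3 genes the median is the level of Mir26a-2 and says nothing of Mir26b, which ranked 12. A stretch shared with another miRNA gene was found in 2 of the 3 Mir26 genes. It was found in 7 of the 11 genes of that list and 89 of the 395 detected genes, so the medians compare unlike sets. After Mir107 that list was led by Mir128-1 (168 and 133 CPM) and Mir153 (156 and 134 CPM), both known from neurons. Of its 11 genes, 1 was called between the libraries, against 4.05% of all detected genes. With no limit on the fold, 7 of the 11 passed, against 51.9% of all detected genes, too few genes to tell such shares apart. Of the 7, 5 lay above and 2 below a log2 ratio of 0. The called gene was Mir208a, in a gene for heart muscle myosin, with 16.5 CPM for replicate 1 against 6.91 CPM for replicate 2 (log2 ratio 1.26, exact binomial adjusted p = 1.36e-05). The median log2 ratio was -0.09 for the Mir26 genes, against 0.16 for this list and 0.0026 for all detected genes.

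Another list was of miRNA genes known to hold back the step from G1 to S phase, a step at which the retinoblastoma protein acts. Planned genes whose symbol matched no gene row, Mir195, Mir497, Mirlet7e and Mirlet7f-1, are left out of it. The genes measured were all detected, 18 of 18, against 395 of the 1973 gene rows, with a median of 640 CPM. They were led by Mirlet7i (35943 and 30648 CPM) and Mirlet7g (29639 and 30742 CPM), the only genes of this list above Mir26b. Next came Mirlet7d (5498 and 4240 CPM), Mir15a (3806 and 3813 CPM), Mir98 (2472 and 2426 CPM) and Mir16-1 (1638 and 2024 CPM). The list held 8.37% of all counts in replicate 1 and 7.91% in replicate 2, and 0 of its 18 genes were called between the libraries, against 4.05% of all detected genes, too few genes to tell such shares apart. With no limit on the fold, 12 of the 18 passed, against 51.9%. Its median log2 ratio was -0.01. The Mir30 list had 0 called genes of 6, against the same 4.05%. With no limit on the fold it had 4 of 6 that passed, against the same 51.9%. It had a median level of 2647 CPM and a median log2 ratio of 0.04.

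The genes nearest to each Mir26 gene in level, by the distance of log2(CPM + 1) over the 2 libraries, were Mir30e, Mir100 and Mir126a for Mir26b, at distances of 0.174, 0.179 and 0.237. Mir126a of endothelium stood at 29030 and 27230 CPM and Mir100 at 24528 and 23317 CPM. For Mir26a-2 they were Mir1955 (0.167), Mir383 (0.246) and Mir1198 (0.361), with 36.3 to 53.8 CPM in either library. For Mir26a-1 they were Mir19b-2 (0.129), Mir1948 (0.224) and Mir292 (0.236), with 6.78 to 10.3 CPM. Over 2 libraries such nearness reflects the level alone.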

How the data were processed

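The authors deposited a table of raw counts of reads per miRNA gene for each library, without pooling. They aligned to mm10 and used annotation M4, per the labels' library descriptions. Which aligner, counter and trimming they used is not given in the sources used here. The tables have no header and give a count for both strands and one for each strand. Which column is the gene's own strand was taken from the values, as the column with nearly all reads on genes, and that column was used. The 4 entries of unassigned reads stayed out of library sizes: unmapped reads were 25.7% and 19.4% of all reads in replicates 1 and 2, reads with several places 26.0% and 27.9%, reads outside genes 5.57% and 4.72%, and 0 reads were ambiguous.

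GENCODE M21 on GRCm38 named 1894 of 1973 gene rows and gave positions. Sequences came from RefSeq. A gene was said to have a shared stretch when 20 of its bases in a row recurred, in either orientation, in another miRNA locus (929 genes, 89 of them detected). Hairpins were aligned globally with Biopython 1.88. The members and lists were chosen with earlier results of these data known. The text names the members, at most 6 detected genes of each list by level with the Mir103 and Mir107 genes, and the 3 genes nearest to each member. Mir208a, Mir218-1, Mir16-2, the neighbouring miRNA genes and the tissue checks Mir140 and Mir205 fall outside this rule and were named after their values were seen.

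Libraries were compared with TMM factors of 0.998 and 1.002 (edgeR 4.0.16, R 4.3.3), an exact binomial test per detected gene and Benjamini-Hochberg adjustment over all 395. With 1 library on each side there are no residual degrees of freedom for a quasi-likelihood test. A check of the test used simulated counts with counting error alone, so it cannot show how the test behaves under further spread between libraries. Intervals (SciPy 1.17.1) and floors cover counting error only, and reads copied from the same molecule were not corrected for here. Alternatives were both-strand counts, all reads as library size, DESeq2 1.42.0 size factors, other count minimums, removal of genes that share sequence, a fixed coefficient of variation, and each library alone.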

Additional observations from a re-analysis of the deposited data

How the results depend on the processing

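Over the alternatives run, all 18 log2 ratios of the Mir26 genes between the libraries stayed below 0 and uncalled, from -0.26 to -0.05 for Mir26b, -0.36 to -0.16 for Mir26a-2 and -0.26 to -0.04 for Mir26a-1. With no limit on the fold and all reads as the library size, Mir26a-2 passed the exact binomial test (adjusted p = 0.0154), which it did not in the report. With the removal of genes that share sequence, the Mir26a genes have no value, and Mir26a-1 has none at a minimum of 100 counts. With all reads as the library size, levels were 11221 CPM for Mir26b, 18.6 CPM for Mir26a-2, 3.66 CPM for Mir26a-1 and 1.12% for the family; the medians of the paralogous-host, cell cycle and Mir30 lists were 31.5, 282 and 1153 CPM. This setting divides by a larger total. With genes that share sequence removed, Mir26b stood at 28620 CPM and the family at 2.86%, and the list medians were 41.3, 1649 and 7172 CPM, over fewer genes; the median log2 ratio of the paralogous-host list was then 0.51. The ratio of Mir26b to Mir26a-1, 3068 in the report's counts, was 3028 with both-strand counts and 3248 per 100 bases, and that of Mir26a-2 to Mir26a-1 was 5.44 per 100 bases. The paralogous-host median was 69.2 CPM with both-strand counts and 81.9 CPM at a minimum of 100 counts, and 71.3 to 72.7 CPM with each library alone.

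Genes called between the libraries numbered 16, against 6 of 277 at a minimum of 100 counts and 2 in edgeR's exact test with a coefficient of variation fixed at 0.2. In that test 2 genes passed without a fold limit, against 205, and Mir26b did not (edgeR adjusted p = 1). No paired analysis was possible because there is a single group. Depth limits Mir26a-1 most, with 38 and 51 reads.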
